A study of Homo sapiens with 6 samples.

Results

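The genes of the extracellular matrix that encode collagen chains, laminin chains, fibronectin and tenascin C were followed in A549 cells after over-expression of the RNA-binding protein CELF6. Members were all protein-coding genes of the count table whose symbol has the form of a collagen chain (COL, a number, A, a number) or of a laminin chain (LAMA, LAMB or LAMC with a number), together with FN1 and TNC. This gave 54 of the 29889 genes in the table, of which 17110 are protein-coding. There were 40 collagen genes, 12 laminin genes, FN1 and TNC. The rule is written in symbols and gene types, with no measured value in it, but the set was picked with earlier results of these data known. A549 is a line grown from a human lung adenocarcinoma. The CELF6-OE group received a CELF6 expression plasmid, and the Control group, according to the methods, received the empty plasmid. The transfection was transient, RNA was collected after 48 h, and each of the 6 libraries (3 biological replicates per group) pools transfected cells with any that did not take up the plasmid.

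Collagens are built from 3 chains wound into a triple helix. Collagen IV forms the sheet of basement membranes, collagen VI forms beaded filaments, and the fibrillar collagens I, II, III, V, XI and XXVII form or nucleate fibrils. Laminins are cross-shaped proteins of 1 alpha, 1 beta and 1 gamma chain that polymerise on the surface of epithelial cells and bind integrins there. Fibronectin is a dimer that cells stretch into fibrils through integrins, and tenascin C is a large glycoprotein known from wounds and tumour stroma. Epithelial cells of the lung rest on a basement membrane to which they contribute laminin and collagen IV.

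The libraries held between 33748328 and 35413404 counts on genes in CELF6-OE and between 36422617 and 37920700 in Control. CELF6 itself was counted 18646, 20789 and 11571 times in CELF6-OE replicates 1 to 3 and 0 times in each Control library, so the libraries fitted their labels. Mitochondrial genes took 8.69% to 10.1% of the counts. The 6 epithelial markers examined (KRT7, KRT8, KRT18, KRT19, EPCAM and CDH1) were all detected, with summed FPKM (fragments scaled by transcript length and by the mapped fragments of the library) of 5041 to 5793 in CELF6-OE against 6177 to 7029 in Control, while the 6 fibroblast markers summed to at most 0.63 FPKM in any library. The test was edgeR's quasi-likelihood test on the counts of the 15847 genes that passed a filter on low counts, with Benjamini-Hochberg adjustment over all of them. A gene was called at an adjusted p under 0.05, and a second, size-based rule asked for a p under 0.01 and a change of at least 1.5-fold.

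Fibronectin, 3 laminin chains and a few collagen chains dominated the matrix transcripts of these cells. Of the 54 members, 20 had a mean of at least 1 FPKM over the 6 libraries. FN1 was the most abundant in Control, with 41.8, 32.3 and 27.1 FPKM in replicates 1 to 3, and had 19.5, 18.1 and 21.8 FPKM in CELF6-OE. LAMB1, the beta chain shared by many laminins, had 25.5, 24.0 and 22.2 FPKM in Control and 19.3, 22.7 and 21.9 in CELF6-OE. FN1 thus stood above LAMB1 in all 3 Control libraries and in CELF6-OE replicate 1, and below it in CELF6-OE replicates 2 and 3. COL18A1, a basement membrane collagen that carries heparan sulfate chains and releases endostatin, had 18.0, 20.2 and 21.1 FPKM in Control and 14.9, 16.1 and 17.2 in CELF6-OE. LAMC1, the most widely used gamma chain, had 17.2, 16.7 and 16.3 FPKM in Control and 14.7, 17.8 and 16.4 in CELF6-OE. The levels of COL18A1 did not overlap between the groups, whereas those of LAMC1 did. LAMA5, an alpha chain of adult epithelial basement membranes, had 11.4, 11.9 and 13.6 FPKM in Control and 10.6, 12.6 and 11.9 in CELF6-OE. COL4A2 had 11.6, 12.3 and 13 FPKM in Control and 10.7, 13 and 11.1 in CELF6-OE. In LAMA5 and COL4A2 the groups overlapped.

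**Figure D1:**
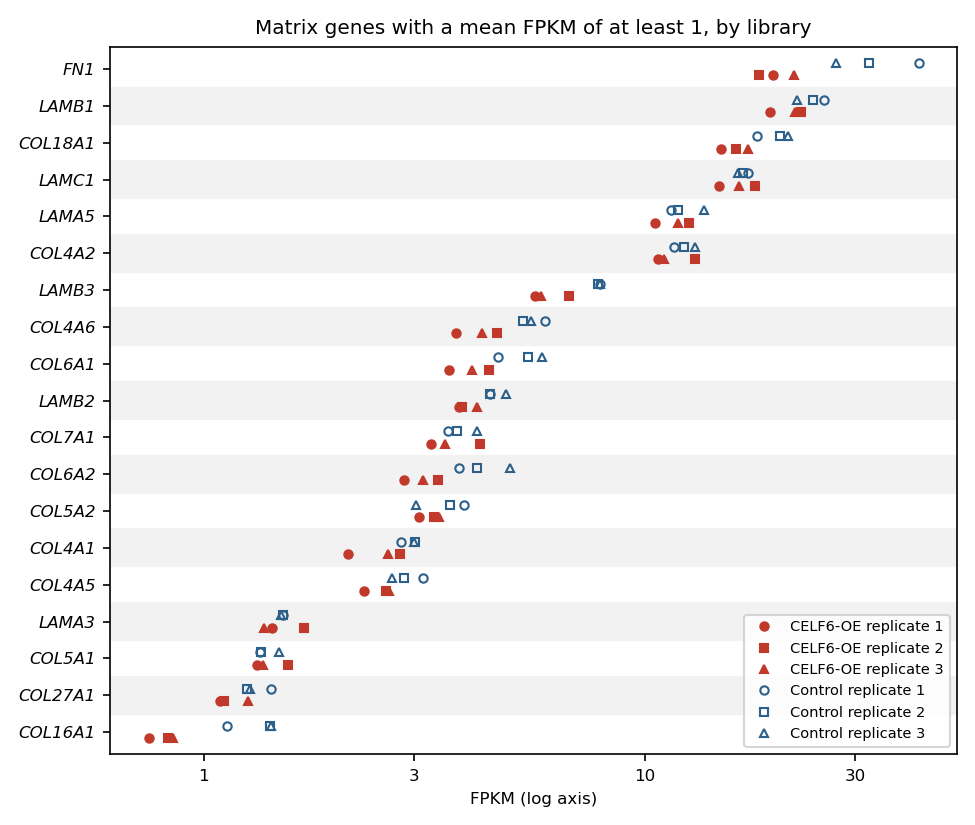
FPKM of members with a mean of at least 1 FPKM, on a log axis, with 1 point per library (filled red for CELF6-OE, open blue for Control, and a circle, square or triangle for replicates 1 to 3). The FN1 points of Control lie between 27.1 and 41.8 and those of CELF6-OE between 18.1 and 21.8, whereas the points of LAMC1, LAMA5 and COL4A2 overlap.

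Summed over all members, FPKM ran from 137 to 155 in CELF6-OE, against 173 to 185 in Control, and the members took 0.105% to 0.119% of all counts in CELF6-OE and 0.132% to 0.143% in Control. The groups did not overlap in either measure. The laminin part of the summed FPKM did overlap, with 64.7, 76.1 and 70.0 in CELF6-OE against 78.3, 75.3 and 75.6 in Control. The collagen part ran from 52.2 to 60.8 in CELF6-OE and from 64.7 to 70.6 in Control. FN1 alone made up 11.7% to 14.5% of the summed FPKM in CELF6-OE and 15.6% to 22.6% in Control. Since these are bulk libraries, fewer cells that make a transcript and less of the transcript per cell cannot be told apart.

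Of the 54 members, 35 passed the filter on low counts and were tested, and 32 of these 35 lay above the filter's limit (0.278 CPM, counts scaled by library size) in all 6 libraries. At an adjusted p under 0.05, 8 of the 35 were down-regulated in CELF6-OE (22.9%), beside 11.5% of all genes tested. These were FN1, COL16A1, COL4A6, LAMB3, COL5A3, COL6A2, COL18A1 and COL6A1. No member was called higher with edgeR, DESeq2 or limma-voom, beside 6.47% of all genes with edgeR. COL21A1 and TNC were higher at an unadjusted edgeR p under 0.05 (0.0219 and 0.0472). The share of all genes at that limit was not computed. By the size-based rule 3 members were lower (8.57%, beside 5.91% of all genes) and 0 higher (beside 1.36%), and 7.27% of all genes passed it in either direction. The fitted log2 fold change was below 0 for 32 of 35 members and for 48.4% of all genes, and for 28 of the 35 members when libraries were scaled by library size only. The median log2 fold change of the members was -0.25, beside 0.01 over all genes, and single members ran from -1.51 to 0.73. Counts were also scaled with TMM, edgeR's factor for library composition. On these, the highest CELF6-OE library was under the lowest Control library for 17 tested members (48.6%, beside 20.0% of all genes). The reverse held for 1 tested member, COL21A1 (beside 17.9%), and also for COL13A1, which was not tested. These 17, and the members with a fitted change below 0, include COL22A1. COL22A1 lay above the filter's limit in 0 CELF6-OE and 3 Control libraries, so the filter partly fixes its place in both counts.

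**Figure D2:**
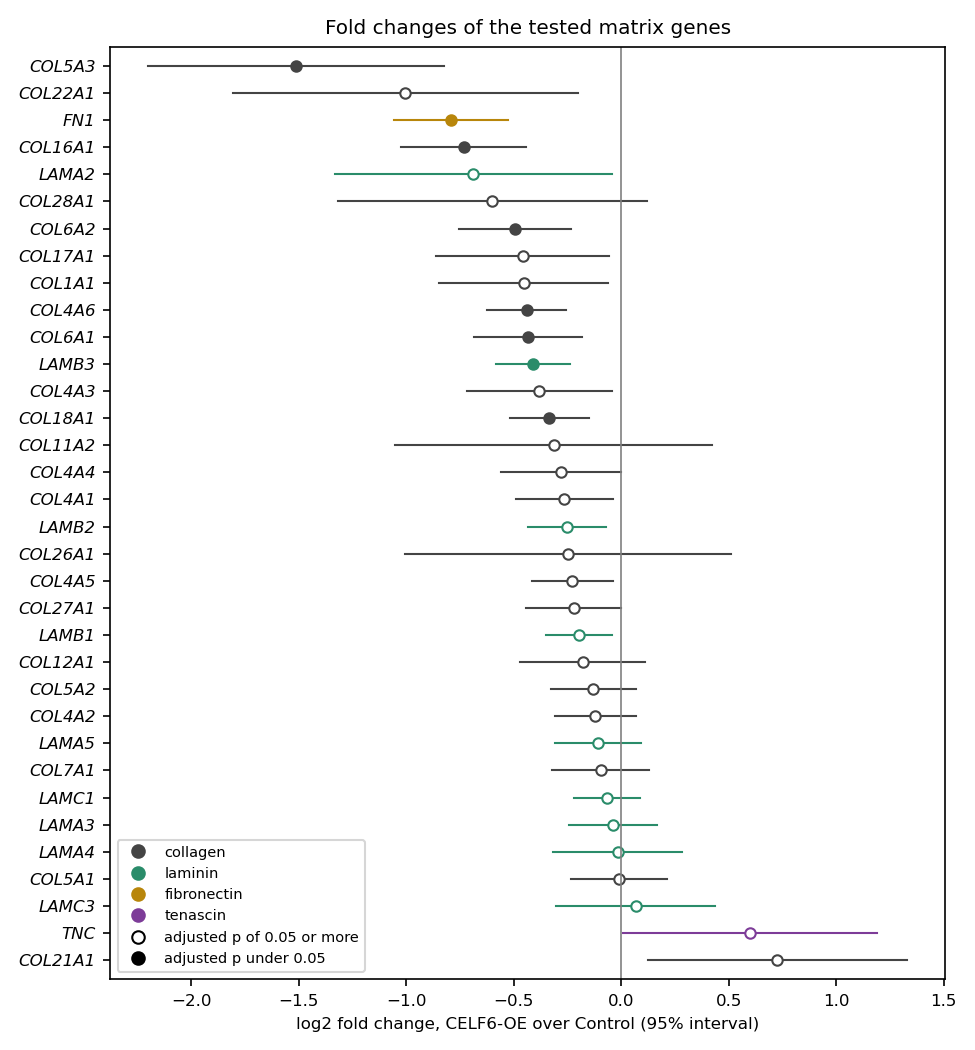
Log2 fold change of CELF6-OE over Control for tested members, ordered by size, with 95% intervals as bars, colours for the families and filled points for the 8 members with an adjusted p under 0.05. All points but those of LAMC3, TNC and COL21A1 lie below 0, and the widest bars belong to members with few counts, such as COL22A1 and COL26A1.

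FN1 encodes fibronectin, which carries the RGD sequence read by several integrins. The gene lies on chromosome 2 from 215360440 to 215436073 on the minus strand (GRCh38). The fall from Control to CELF6-OE was 0.79 on the log2 scale (SE 0.12, edgeR adjusted p = 0.00118), so that 57.8% of the Control level was left. Over all alternative settings the adjusted p lay between 2.07e-26 and 0.00931, and over the fits that left out a library between 3.00e-05 and 0.00931. Control replicate 1 had the highest FN1 value, and the Control libraries (33.7 ± 7.44 FPKM, SD, n = 3) varied more among themselves than the CELF6-OE libraries (19.8 ± 1.85). The 3 Control libraries all exceeded the 3 CELF6-OE libraries, and without Control replicate 1 the log2 fold change was -0.64. The 250 bases before the FN1 start in RefSeq (GRCh38.p14, chr2:215436069-215436318, minus strand) are shown because FN1 was the most abundant of the called genes. Capitals mark matches, on either strand, to TGACGTCA (the cyclic AMP response element), CCAAT (the CCAAT box), GGGCGG (the GC box) and TATAA (the TATA box). The core of the interferon response element was also searched and has no match in the stretches shown.
FN1: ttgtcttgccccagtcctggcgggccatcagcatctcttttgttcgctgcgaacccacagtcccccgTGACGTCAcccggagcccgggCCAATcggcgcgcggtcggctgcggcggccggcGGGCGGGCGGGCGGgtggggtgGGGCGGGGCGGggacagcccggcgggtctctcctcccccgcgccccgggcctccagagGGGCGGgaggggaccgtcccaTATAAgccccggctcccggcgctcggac
The window holds 1 match to TGACGTCA, and 1.77% of the windows of this length before 27305 gene starts hold one. It also holds 1 CCAAT box (33.0% of windows), 6 GC boxes with overlaps counted (42.3%) and 1 TATA box (19.6%). A match is a description of the letters only.

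Collagen VI was measured through COL6A1 and COL6A2, and both of these chains were down-regulated. They lie side by side on chromosome 21 and encode 2 of the 3 chains of the filament. COL6A1 had 4.64, 5.44 and 5.86 FPKM in Control and 3.59, 4.44 and 4.06 in CELF6-OE, and COL6A2 had 3.8, 4.17 and 4.94 in Control and 2.85, 3.40 and 3.14 in CELF6-OE. All CELF6-OE values lay below all Control values in both genes. COL6A1 fell by 0.43 on the log2 scale (SE 0.11, edgeR adjusted p = 0.0247) and COL6A2 by 0.49 (SE 0.12, adjusted p = 0.0162). Within a library the ratio of COL6A1 to COL6A2 FPKM was 1.26, 1.31 and 1.29 in CELF6-OE and 1.22, 1.30 and 1.19 in Control, and the groups overlapped. Both calls were lost when certain single libraries were left out. Without CELF6-OE replicate 1 the adjusted p was 0.114 for COL6A1 and 0.0819 for COL6A2, without Control replicate 2 it was 0.102 and 0.0534, and without CELF6-OE replicate 3 that of COL6A1 was 0.0561. The largest adjusted p over all alternatives was the first of these for each gene. COL6A3, which encodes the third chain, had between 2 and 12 counts per library and was not tested.

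Among the collagens that form or decorate fibrils, COL16A1 and COL5A3 were called. Their mean levels over the 6 libraries were 1.065 and 0.117 FPKM, and chains that were not called lay both above and below these levels. COL16A1 encodes a collagen with interrupted triple helices that associates with fibrils. It had 1.13, 1.41 and 1.42 FPKM in Control and 0.75, 0.83 and 0.85 in CELF6-OE, without overlap, and fell by 0.73 on the log2 scale (SE 0.13, edgeR adjusted p = 0.00331, between 1.11e-06 and 0.0246 over all alternatives). The smallest of these values came from the fit without the filter on low counts. COL5A3, the rarest of the collagen V chains in these cells, had 57, 32 and 35 counts in Control against 15, 11 and 15 in CELF6-OE. The groups were apart, and COL5A3 fell by 1.51 (SE 0.31, adjusted p = 0.00714, between 1.18e-05 and 0.0415 over all alternatives). Its fall was 1.22 without Control replicate 1, the library with the most counts. COL5A1 and COL5A2, the main collagen V chains, had mean levels over the 6 libraries above 1 FPKM and were not called (log2 fold change -0.01 with an interval of -0.23 to 0.21, and -0.13 with -0.33 to 0.07). COL1A1, a chain of collagen I, ran from 0.22 to 0.32 FPKM in CELF6-OE, against 0.33 to 0.42 in Control, and was not called (log2 fold change -0.45, adjusted p = 0.104). COL27A1, a fibrillar collagen of cartilage, and COL12A1, which binds along fibrils, were not called either (adjusted p of 0.153 and 0.379). COL21A1, which also attaches to fibrils, stood against the others: it reached 29, 28 and 25 counts in CELF6-OE against 20, 20 and 12 in Control, with a log2 fold change of 0.73 (interval 0.12 to 1.33, adjusted p = 0.0892). The groups of COL21A1 were apart, but the adjusted p missed the threshold.

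All 6 genes of collagen IV were tested, and their fitted changes were all below 0, yet only COL4A6 was called (16.7%, beside 11.5% of all genes). COL4A6 had 5.95, 5.29 and 5.53 FPKM in Control and 3.73, 4.63 and 4.28 in CELF6-OE. The groups were apart, and COL4A6 fell by 0.44 on the log2 scale (SE 0.084, edgeR adjusted p = 0.00471, between 1.37e-05 and 0.0307 over all alternatives). Its partner COL4A5, which shares the trimer with it, ran from 2.31 to 2.63 FPKM in CELF6-OE, against 2.67 to 3.14 in Control, and was not called (log2 fold change -0.23, adjusted p = 0.0905). COL4A1 and COL4A2 encode the chains of the common collagen IV trimer. COL4A1 had 2.80, 3.02 and 3.0 FPKM in Control and 2.12, 2.78 and 2.61 in CELF6-OE. Its highest CELF6-OE library, replicate 2, was close to the lowest Control library, replicate 1. The log2 fold change of COL4A1 was -0.26 (interval -0.49 to -0.04, adjusted p = 0.0996), and without Control replicate 1 it was -0.33 with an adjusted p of 0.0248, within a range of 0.0248 to 0.345 over all alternatives. COL4A2 had a log2 fold change of -0.12 (interval -0.31 to 0.07). COL4A3 and COL4A4, which join COL4A5 in the collagen IV of kidney and lung alveoli, were both under 1 FPKM and not called (log2 fold changes of -0.38 and -0.28). Without Control replicate 3, COL4A5 and COL4A4 passed the threshold (adjusted p of 0.0464 and 0.0304).

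The collagen IV genes lie in 3 pairs, each with its 2 starts facing away from each other, and the RefSeq starts are 127 bases apart in COL4A1 and COL4A2, 380 in COL4A6 and COL4A5, and 419 in COL4A4 and COL4A3. The stretch between the first pair (chr13:110307158-110307283, plus strand) and the 250 bases before COL4A5, toward COL4A6 (chrX:108439588-108439837, plus strand), are shown. Each lies between the starts of 2 genes that can be compared within a library, and whether either stretch acts on both genes was not tested. Capitals mark the same letters as above.
COL4A1 and COL4A2: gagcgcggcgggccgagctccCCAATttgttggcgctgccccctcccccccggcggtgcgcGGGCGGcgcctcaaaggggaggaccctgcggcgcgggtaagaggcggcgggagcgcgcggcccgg
COL4A5: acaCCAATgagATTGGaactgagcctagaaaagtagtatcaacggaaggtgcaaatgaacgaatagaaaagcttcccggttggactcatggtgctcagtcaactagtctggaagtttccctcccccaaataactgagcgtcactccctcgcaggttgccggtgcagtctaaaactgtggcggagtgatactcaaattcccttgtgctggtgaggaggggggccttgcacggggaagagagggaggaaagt
The first stretch holds 1 CCAAT box and 1 GC box, which 21.9% and 34.6% of the windows of its length hold. The COL4A5 window holds 2 CCAAT boxes, 1 on each strand. COL4A6 to COL4A5 had a ratio of 1.61, 1.79 and 1.63 in CELF6-OE and 1.89, 1.86 and 2.07 in Control, so all CELF6-OE ratios lay below all Control ratios (exact permutation test, two-sided, p = 0.1, the smallest that 3 against 3 can give, and adjusted p = 0.267 over 8 pairs). The ratio of COL4A1 to COL4A2 was 0.198, 0.214 and 0.236 in CELF6-OE and 0.241, 0.246 and 0.230 in Control, with overlap (exact p = 0.2). The ratio of COL4A3 to COL4A4 overlapped too (exact p = 0.3). The 8 pairs were chosen after the values had been seen.

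Outside collagen IV, the basement membrane collagen COL18A1 was down-regulated by 0.33 on the log2 scale (SE 0.084, edgeR adjusted p = 0.0203), with the levels given above. The call was lost without CELF6-OE replicate 1 (adjusted p = 0.102), CELF6-OE replicate 2 (0.0825) or Control replicate 2 (0.0986), within a range of 0.000131 to 0.102 over all alternatives. Of its 8464 exon bases, 1563 are shared with SLC19A1, a folate carrier gene on the opposite strand, and although the libraries were directional, the strand setting of the counting is not given in the sources used here, so reads from the shared bases cannot be told apart. COL7A1, the anchoring fibril collagen, was not called (log2 fold change -0.10, interval -0.32 to 0.13), nor was COL17A1, the transmembrane collagen of hemidesmosomes (-0.46, adjusted p = 0.108). Without Control replicate 1, COL17A1 passed the threshold (adjusted p = 0.0221). COL22A1, COL26A1, COL28A1 and COL11A2 had between 7 and 28 counts per library and none was called. COL22A1 lay above the filter's limit in 0 CELF6-OE and 3 Control libraries, so it was tested only through the group where it is high, and COL26A1 and COL28A1 each lay above it in 2 CELF6-OE and 3 Control libraries. COL22A1 had the lowest adjusted p of these (log2 fold change -1.0, adjusted p = 0.0782, and 0.0367 without Control replicate 1), values that the filter partly fixes.

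**Figure D3:**
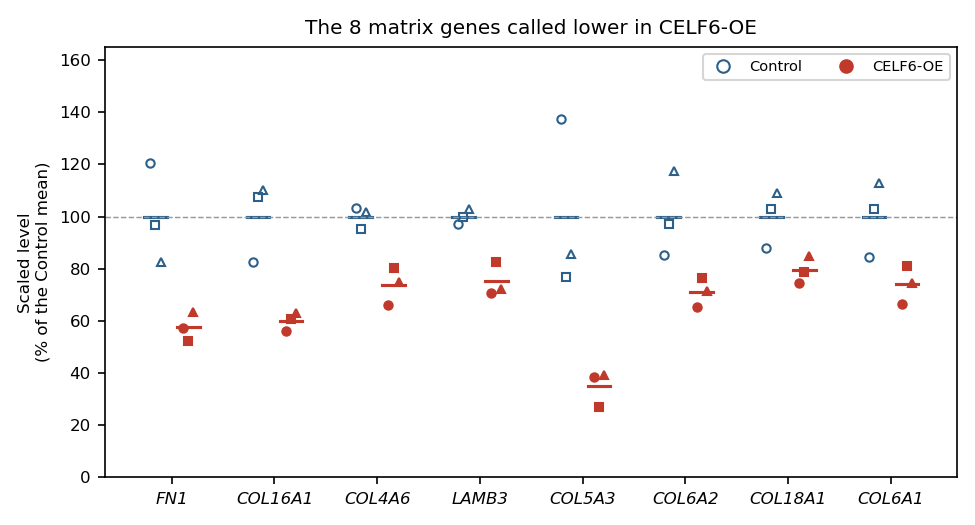
Level of the 8 called members in each library, as scaled counts in percent of the Control mean of the gene, on an axis that starts at 0, with 1 point per library (open for Control, filled for CELF6-OE, and a circle, square or triangle for replicates 1 to 3) and a short line at each group's mean. In each gene the 3 CELF6-OE points lie below the 3 Control points, and Control replicate 1 is the highest point of FN1, COL5A3 and COL4A6 and the lowest Control point of COL6A1, COL6A2, COL16A1, COL18A1 and LAMB3.

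Of the laminin chains, 10 were tested and LAMB3 alone was called (10.0%, near the 11.5% of all genes that were lower). LAMB3 encodes a beta chain that joins LAMA3 in the anchoring laminin of skin and other epithelia. It had 7.92, 7.84 and 7.92 FPKM in Control and 5.65, 6.73 and 5.82 in CELF6-OE, without overlap. LAMB3 fell by 0.41 on the log2 scale (SE 0.079, edgeR adjusted p = 0.00488, between 8.64e-05 and 0.0386 over all alternatives), so that 75.3% of the Control level was left. Its partner LAMA3 was not called, with 1.51, 1.51 and 1.5 FPKM in Control and 1.43, 1.69 and 1.37 in CELF6-OE (log2 fold change -0.04, interval -0.24 to 0.17). The log2 fold change of LAMA3 changed sign when libraries were scaled by library size only, to 0.00. The ratio of LAMB3 to LAMA3 within a library was 3.95, 3.98 and 4.25 in CELF6-OE and 5.25, 5.19 and 5.28 in Control. It was lower in all CELF6-OE libraries than in all Control libraries, and a ratio within a library does not depend on how libraries are scaled. The exact permutation p was 0.1, the smallest possible (adjusted p = 0.267 over the 8 pairs), so the difference did not pass the threshold.

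**Figure D4:**
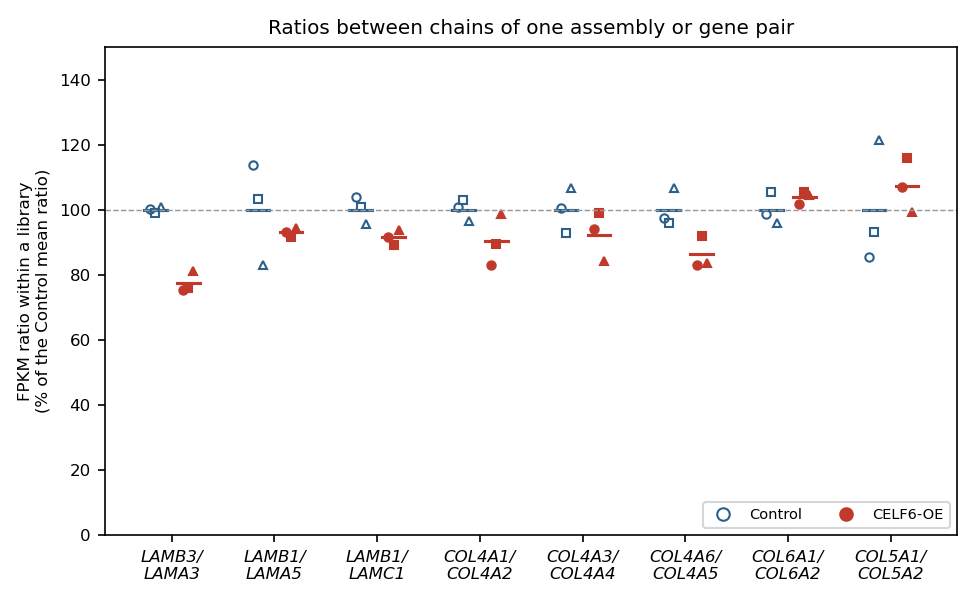
Ratio of FPKM between 2 chains of an assembly or gene pair within a library, in percent of the Control mean ratio, with 1 point per library (open for Control, filled for CELF6-OE, shapes for replicates) and a short line at each group's mean. LAMB3 to LAMA3, LAMB1 to LAMC1 and COL4A6 to COL4A5 are lower in all 3 CELF6-OE libraries than in Control, and the groups of the other 5 pairs overlap.

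The other laminin beta chains lay on the same side of 0. LAMB2, found in muscle and kidney basement membranes, ran from 3.79 to 4.17 FPKM in CELF6-OE, against 4.46 to 4.85 in Control, and just missed the threshold (log2 fold change -0.25, edgeR adjusted p = 0.0550). LAMB1 had a log2 fold change of -0.19 (interval -0.35 to -0.04, adjusted p = 0.0784). LAMB1 shares 300 exon bases with DLD, a metabolic enzyme gene on the opposite strand. LAMA5 shares 244 with ADRM1, also on the opposite strand. Over all libraries DLD had 18553 counts against 31711 for LAMB1, and ADRM1 had 51519 against 30971 for LAMA5. Without Control replicate 1, LAMB2 passed the threshold (0.0135), and without Control replicate 3, LAMB1 did (0.0360). The alpha chain LAMA5 and the gamma chain LAMC1, which assemble with LAMB1, had log2 fold changes of -0.11 (interval -0.31 to 0.09) and -0.07 (-0.22 to 0.09). LAMB1 to LAMC1 was lower in all CELF6-OE libraries (log2 difference of the ratios -0.13, exact p = 0.1), whereas LAMB1 to LAMA5 overlapped (exact p = 0.6). LAMA2, the muscle alpha chain, was low, with 15, 35 and 25 counts in CELF6-OE against 37, 39 and 51 in Control (log2 fold change -0.69, adjusted p = 0.127). LAMA4, of vessel walls, and LAMC3 were under 1 FPKM, with log2 fold changes of -0.02 and 0.07, and both changed sign under at least 1 alternative.

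TNC was a minor transcript in these cells. Its counts were 40, 67 and 46 in CELF6-OE against 48, 32 and 26 in Control, or 0.12, 0.20 and 0.14 against 0.14, 0.09 and 0.07 FPKM. The groups overlapped through Control replicate 1. The log2 fold change was 0.60 (SE 0.27, interval 0.01 to 1.19, edgeR adjusted p = 0.147), and without Control replicate 1 it was 0.87 with an adjusted p of 0.0325. The adjusted p ran from 0.0325 to 0.463 over all alternatives.

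The 19 members that were not tested had at most 14 counts in any library, and 7 of them had 5 or fewer counts in all 6 libraries together. Summed over these 19 genes, there were 123 counts in CELF6-OE and 144 in Control. They included the cartilage collagens COL2A1, COL9A2, COL9A3, COL10A1 and COL11A1, the stromal collagen COL3A1, and LAMA1, the alpha chain of early embryonic laminin. The member nearest to the filter was COL13A1, a transmembrane collagen, with 12, 12 and 9 counts in CELF6-OE against 8, 6 and 8 in Control. On scaled counts its CELF6-OE libraries all lay above its Control libraries. It was above the filter's limit in 2 CELF6-OE and 0 Control libraries. At this depth differences in these genes were not tested. Of the 35 tested members, 15 share exon bases with another gene in GENCODE v44, 12 of them with a gene on the opposite strand. For the called members the shared genes are SLC19A1 with COL18A1, the antisense RNA PEF1-AS1 (117 bases) with COL16A1, an unnamed long non-coding RNA (270 bases) with COL5A3, and the microRNA MIR4260 with LAMB3.

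Genes that work with these proteins were examined from 5 lists. Of the partners of laminin and collagen IV in the basement membrane, 12 were tested and 4 were lower at an adjusted p under 0.05 (33.3%, edgeR, beside 11.5% of all genes), with a median log2 fold change of -0.37. They were AGRN, HSPG2, NID1 and SMOC1, the first 2 named here after their values were seen. AGRN and HSPG2 are heparan sulfate proteoglycans, NID1 links laminin to collagen IV, and SMOC1 is a calcium-binding basement membrane protein. SMOC1 had 6.57, 6.12 and 5.6 FPKM in Control and 2.94, 2.46 and 3.63 in CELF6-OE (log2 fold change -1.05, adjusted p = 0.000247), and NID1 fell by 0.60. NID1 missed the threshold without CELF6-OE replicate 2 or Control replicate 2 (adjusted p of 0.0518 and 0.0506), and HSPG2 without CELF6-OE replicate 1 (0.0524).

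Of the enzymes and chaperones that hydroxylate, fold and process collagen, 13 of 26 were lower (50.0%, beside 11.5% of all genes), with a median log2 fold change of -0.27. By the size-based rule 3 of the 26 were lower, P4HA3, P4HA1 and ADAMTS2, beside 5.91% of all genes. P4HA1 and P4HA3 are catalytic subunits of prolyl 4-hydroxylase, and ADAMTS2 removes the amino-terminal propeptide of fibrillar procollagens. P4HA3 had 7.62, 7.66 and 7.15 FPKM in Control and 4.59, 4.58 and 4.60 in CELF6-OE (log2 fold change -0.73), and P4HA1 fell by 0.62. ADAMTS2 was at or under 0.10 FPKM in every library and missed the threshold in 4 of the 6 fits that left out a library, with DESeq2 and under scaling by library size only. Its counts were 8, 3 and 11 in CELF6-OE against 27, 17 and 17 in Control, so it passed the filter only through Control, where it is high. Under the alternatives the count of this list ran from 5, without CELF6-OE replicate 1 or without Control replicate 2, to 16, without Control replicate 1. Over all genes tested in these fits, in the same order, 1127 of 16205, 1032 of 16088 and 2370 of 16077 were lower. In every alternative 4 of the 13 genes were called. No gene of these first 2 lists was called higher with edgeR, DESeq2 or limma-voom, beside 6.47% of all genes with edgeR. Without Control replicate 1 there was 1 higher in the first list, beside 1906 of 16077 genes.

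Of the receptors that bind matrix proteins, 8 of 19 were lower (42.1%, beside 11.5% of all genes). Of the same 19, 1 was higher, ITGAV, beside 6.47% of all genes, and the median log2 fold change was -0.20. The count of lower receptors was 5 without CELF6-OE replicate 1 and without Control replicate 2, 6 without CELF6-OE replicate 2, and 10 without Control replicate 1. Over all genes, 1066 of 16191 were lower without CELF6-OE replicate 2, and the counts of the other fits are given above. The calls of ITGA3, ITGB5 and CD44, also named after their values were seen, were the ones lost. ITGA2, the alpha chain of a collagen-binding integrin, fell by 0.60. It was the only 1 of the 19 that was lower by the size-based rule, beside 5.91% of all genes. Of 2 receptor chains named after their values were seen, ITGA5, a chain of the main fibronectin receptor, fell by 0.52, and ITGAV, a chain of the vitronectin receptors, was higher by 0.41 on the log2 scale (adjusted p = 0.0463). ITGAV missed the threshold in 4 of the 6 fits that left out a library and under scaling by library size only. Of 19 other matrix glycoproteins, VTN was lower (5.26%, beside 11.5%) and 3 were higher (beside 6.47% of all genes), with a median of -0.18. VTN, which encodes vitronectin, had 19.5, 19.1 and 18.0 FPKM in Control and 6.19, 5.20 and 7.66 in CELF6-OE (log2 fold change -1.60). The 3 higher genes, named after their values were seen, were THBS1, CYR61 and CTGF, with log2 fold changes of 0.47, 0.31 and 0.48. THBS1 and CYR61 missed the threshold without CELF6-OE replicate 2 or Control replicate 2. Of 14 genes of the TGF-beta pathway, which drives matrix genes in many cell types, 2 were lower (14.3%, near the 11.5% of all genes). Among them was ACVRL1, a receptor kinase, with a log2 fold change of -2.45. TGFBR1 alone was higher (0.48), 1 of 14 beside 6.47% of all genes, and the median over the list was 0.06. TGFBR1, another receptor kinase, was named after its value was seen. It missed the threshold without Control replicate 2, without any 1 of the CELF6-OE libraries and under scaling by library size only. Without Control replicate 1 there were 3 higher genes in the list, beside 1906 of 16077 genes.

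Markers of epithelial cells moved in the same direction as the called matrix genes. CDH1 encodes E-cadherin, the adhesion protein of epithelial junctions, and the KRT genes encode keratins. All 6 epithelial markers had a log2 fold change below 0, beside 48.4% of all genes. CDH1, KRT8, KRT18 and KRT19 were lower at an adjusted p under 0.05 (66.7% of the 6, beside 11.5% of all genes). Their log2 fold changes were -1.62, -0.47, -0.36 and -0.22. Of the 6 fibroblast markers only THY1 had enough counts for a test and it was not called. The 4 endothelial markers summed to 0.01 to 0.03 FPKM in CELF6-OE and 0.04 to 0.07 in Control, and the leukocyte markers to 3.67 to 5.03 and 3.6 to 4.31. CD14, a monocyte marker, made up most of the leukocyte sum, with 4.53, 3.29 and 3.57 FPKM in CELF6-OE against 3.29, 3.65 and 3.02 in Control, and was not called (log2 fold change 0.17, adjusted p = 0.443). The other leukocyte marker tested, ITGAM, was lower at an adjusted p under 0.05, at or under 0.59 FPKM in every library. PECAM1, the endothelial marker tested, had 3, 3 and 5 counts in CELF6-OE against 11, 17 and 15 in Control, so it was tested only through the group where it is high. KRT18, KRT19, PECAM1 and ITGAM each missed the threshold without CELF6-OE replicate 2 and without Control replicate 2. KRT19 also missed it without CELF6-OE replicate 1 or 3, with upper-quartile scaling and with the replicate number as a block. PECAM1 also missed it without CELF6-OE replicate 1. The part of the epithelial markers in the fall of the matrix genes was not tested.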

How the data were processed

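RNA of 3 CELF6-OE and 3 Control cultures of A549 cells was sequenced as paired-end reads from directional libraries of polyadenylated RNA. According to the methods, the authors used FASTX-Toolkit for cleaning and TopHat2 for alignment to GRCh38, and counted uniquely located reads per gene. They deposited these counts without normalization, and FPKM values, which are scaled by transcript length and depth and rounded by the authors. The tool for this step, the annotation release and whether the counting used strand are not given in the sources used here. Groups and replicate numbers came from the labels.

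Counts were fitted with edgeR 4.0.16 (R 4.3.3) with TMM scaling and the quasi-likelihood test on genes kept by filterByExpr (minimum count 10), with a prior count of 0.125 for fold changes. Without this filter the prior degrees of freedom were infinite. Intervals of log2 fold changes are 95% intervals from the same fit. FPKM served for levels and ratios only. Ratios were compared with two-sided exact permutation tests. The size-based rule follows the methods of the study, whose results text instead pairs the same fold with an adjusted p under 0.05. Members were named by family and symbol. Values of every library were given for FN1, COL4A1, LAMB3, TNC, each called member and the 10 most abundant. Other lists (basement membrane partners, collagen modification, matrix receptors, other glycoproteins, TGF-beta pathway and markers of 4 cell types) were named for genes passing the size-based rule. The results of 2 genes are not reported here. Members and lists were chosen with earlier results of these data known.

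Replicates of a group were checked for duplicates, and the chi-square per degree of freedom lay between 7.67 and 29.3. The highest value was that of Control replicates 1 and 3, and all other pairs lay between 7.67 and 11.7. Alternatives were RLE, upper-quartile and library-size scaling, no filter, a mean of at least 10 counts, DESeq2 1.42.0, limma-voom (limma 3.58.1), the replicate number as a block, a prior count of 2, leaving out the CELF6 counts and leaving out each library. The procedure was tested on simulated counts. Sequences came from RefSeq (GRCh38.p14), which held a promoter for 41 of the 54 members, and shared exon bases from GENCODE v44. Collagen and laminin genes outside the table were not analysed here.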

Additional observations from a re-analysis of the deposited data

How the results depend on the processing

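FN1, COL16A1, COL4A6, LAMB3 and COL5A3 were called lower in each of the 16 alternatives, and no called member changed sign in any of them. With other scalings, tools, filters and prior counts the same 8 members were called by the adjusted p. When each library was left out in turn, the count of members called lower ran from 5 to 12 and that called higher from 0 to 1, and by the size-based rule from 3 to 6 and from 0 to 1. The 5 lower calls came without CELF6-OE replicate 1 and without Control replicate 2, and the 12 without Control replicate 1, where TNC was the 1 gene called higher. The cause was not tested. Without the filter, LAMA2 joined the members lower by the size-based rule, for 4 in all. Replicates with the same number did not deviate together (correlations of -0.011, -0.021 and -0.072, beside -0.042 to 0.058 for different numbers). With 3 libraries per group this cannot show whether replicates of the same number shared a culture or batch, which the labels do not state. With the replicate number as a block 8 members were lower, 3 by the size-based rule. Over all genes tested, 1820 were lower and 1025 higher, and without 1 library from 1032 to 2370 and from 281 to 1906. By the size-based rule 216 were higher, 324 without the filter, and 155 to 348 without 1 library. Depth limits the 19 untested members and, among the tested, those with few counts, where intervals are wide.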
